A study of Caenorhabditis elegans with 2 samples.

Results

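The 7 genes described here encode the core of the microRNA effector machinery of Caenorhabditis elegans and its cofactors, and were taken by name from a list of the Argonaute genes alg-1 and alg-2, the GW182-family genes ain-1 and ain-2, the TRIM-NHL gene nhl-2, the DEAD-box helicase gene cgh-1 and the Dicer gene dcr-1. All 7 were found among the 19973 protein-coding genes annotated on the nuclear chromosomes. A region of a list was attributed to a gene when its summit, the point of highest signal given in the list, lay inside the gene or within 5 kb of either end. The data are transcription factor ChIP-seq region lists for MDL-1, a bHLH-Zip protein of the Mad type, from 2 biological replicates of 1 group of whole L2 larvae of mixed sex, with no second condition. The strain, OP355, carries the mutation unc-119(tm4063) on chromosome III and the insertion wgIs355, which per the labels targets mdl-1. A further label names KLU-1, not MDL-1, as the protein that bears the GFP-FLAG tag. Within 5 kb of mdl-1 lay 11 optimal summits, among them the strongest of the list with a signal of 1134, and the share that the inserted transgene has in them was not tested. Within 5 kb of klu-1 lay 0 optimal summits, while 10.6% of all protein-coding genes had at least 1 in this window. Which of the 2 proteins bears the tag was not tested. Whole larvae were used, so binding in few cells and weak binding in many cells cannot be told apart.

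In animals, Dicer cuts microRNA precursors, and an Argonaute protein holds the mature microRNA and finds target mRNAs by base pairing. GW182-family proteins bind the Argonaute and recruit factors that repress translation and remove the poly(A) tail. In C. elegans ALG-1 and ALG-2 are the main microRNA Argonautes of the soma, AIN-1 and AIN-2 take the GW182 role, and NHL-2 and CGH-1 act together with the complex as cofactors. The pathway is best known in this animal for timing the cell divisions of larval development, which include those of the L2 stage.

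Of the 7 genes, 4 had an optimal summit in the 5 kb window, namely nhl-2, ain-1, alg-1 and cgh-1, while 10.6% of all protein-coding genes had one. In the promoter window, which covers 1000 bp before and 200 bp after each annotated start, 3 of 7 had an optimal summit, namely nhl-2, ain-1 and cgh-1, against 3.07% of all protein-coding genes. That count rests on the width of the window, since with 500 bp before and 100 bp after each start it was 0 of 7, against 2.29% of all protein-coding genes. The genes were put forward with earlier results of these data known, so the counts are a description and were given no test. Each of the 4 genes had exactly 1 optimal summit, and all 4 summits lay upstream of the gene. The optimal list holds 1076 peaks that passed the authors' filter on the irreproducible discovery rate, a measure of whether regions rank alike in the replicates. The sequences under these 4 peaks are shown because they hold the short words at the summits, and each is written 5′ to 3′ on the plus strand of the WBcel235 (ce11) reference. They lie at chrIII:4899744-4900014 for nhl-2, chrX:16612372-16612547 for ain-1, chrX:13945538-13945837 for alg-1 and chrIII:7498359-7498658 for cgh-1, where the first pair are whole peaks and the others the 300 bases around the summit. Capitals mark CACGTG, the words GAGAGA and GACGCA, and the word CGTCTC on either strand, none of which overlapped another here, and the variant CACATG was searched likewise and was not found.
nhl-2: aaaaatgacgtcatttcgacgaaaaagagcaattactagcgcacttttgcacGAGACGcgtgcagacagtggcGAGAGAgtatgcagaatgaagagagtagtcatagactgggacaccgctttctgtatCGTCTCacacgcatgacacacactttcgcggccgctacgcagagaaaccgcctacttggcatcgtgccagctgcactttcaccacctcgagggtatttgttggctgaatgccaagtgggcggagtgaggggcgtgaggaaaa
ain-1: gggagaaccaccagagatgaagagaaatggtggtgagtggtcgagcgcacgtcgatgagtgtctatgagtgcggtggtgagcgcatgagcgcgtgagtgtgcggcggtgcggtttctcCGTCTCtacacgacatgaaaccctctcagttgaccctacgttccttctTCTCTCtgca
alg-1: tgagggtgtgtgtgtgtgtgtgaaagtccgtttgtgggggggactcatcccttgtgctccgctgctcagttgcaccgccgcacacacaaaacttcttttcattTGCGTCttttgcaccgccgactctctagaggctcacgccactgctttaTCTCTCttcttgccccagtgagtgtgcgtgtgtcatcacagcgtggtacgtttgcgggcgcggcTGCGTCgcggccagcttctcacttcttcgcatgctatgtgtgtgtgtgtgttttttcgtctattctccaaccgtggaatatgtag
cgh-1: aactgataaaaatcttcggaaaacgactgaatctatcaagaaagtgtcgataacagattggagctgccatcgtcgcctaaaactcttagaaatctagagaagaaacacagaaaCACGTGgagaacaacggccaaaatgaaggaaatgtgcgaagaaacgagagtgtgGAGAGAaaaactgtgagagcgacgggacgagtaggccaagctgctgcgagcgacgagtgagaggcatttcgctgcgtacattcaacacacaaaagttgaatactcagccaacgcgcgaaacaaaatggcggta

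CACGTG, the E-box that proteins of the MDL-1 type recognise together with a Max-like partner, was found at 1 of the 4 peaks. It stood at the cgh-1 peak, with its centre 34 bp from the summit. Within 50 bp of the summit CACGTG occurred in 22.0% of all optimal peaks and in 1.67% of windows of the same length tiled over the genome. The variant CACATG, present in 9.76% of all optimal summits and 3.14% of genome windows, was at 0 of the 4. The peaks of nhl-2, ain-1 and alg-1, which had the higher signals, held no CACGTG anywhere within the region.

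The other words were chosen because they led an earlier scan of these same summits, so their presence is a description only. CGTCTC lay 8 bp from the nhl-2 summit and 29 bp from the ain-1 summit. GAGAGA lay 4 bp from the alg-1 summit and 20 bp from the cgh-1 summit, and at nhl-2 and ain-1 it lay farther out, at 64 and 77 bp. GACGCA was found at the alg-1 peak alone, 44 and 68 bp to either side of its summit. Each of the 4 peaks thus held at least 1 of these 3 words within 50 bp, as did 53.2% of all optimal summits and 8.82% of genome windows. Taken singly, GAGAGA was within 50 bp in 35.1% of optimal summits and 5.18% of genome windows, CGTCTC in 27.0% and 2.72%, and GACGCA in 21.5% and 2.02%. The G and C content within 50 bp was 60.4% at ain-1, 54.5% at alg-1, 53.5% at nhl-2 and 47.5% at cgh-1, beside a median of 49.5% over all optimal summits.

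The strongest of the 4 peaks lay upstream of nhl-2, whose protein is a TRIM-NHL cofactor that enhances microRNA activity. The gene spans III from 4893658 to 4899085 on the minus strand and has 1 annotated start. Its peak is 271 bp wide, with a pooled signal of 216 and rank 57 of 1076. The signal was 134 in replicate 1 and 84.6 in replicate 2, and the peak ranked 42 and 95 in those replicates' own lists of 30000 regions. The peak stood high in both lists, and the summits of both replicates lay within 4 bp of the pooled one. The signal is the authors' caller's value, whose scale is not stated, so it is compared only within a list or for the same peak in both replicates. In the whole genome 19 protein-coding genes had a promoter peak at least as strong, nhl-2 included.

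The nhl-2 summit lay 799 bp upstream of the nhl-2 start, in the space between nhl-2 and the divergently transcribed gene tag-340. It was nearer to the start of tag-340, at 624 bp, and lay in the promoter windows of both genes. The summit was also inside the annotated non-coding RNA gene F26F4.14, which runs from 4899802 to 4899950 on the minus strand. The peak alone does not single out 1 of these 3 genes. The other pooled regions in the nhl-2 window were weak, with signals of 24.8, 21.6 and 15.3.

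The ain-1 gene, which encodes a GW182-family partner of the microRNA Argonautes, had the second strongest peak. It spans X from 16613451 to 16616871 on the plus strand, with 1 annotated start. The peak had a pooled signal of 185 and rank 84, and with 176 bp it was the narrowest of the 4. The signal was 112 in replicate 1, at rank 69, and 76.0 in replicate 2, at rank 121. The summit was at the same base in replicate 1 and in the pooled list, and 45 bp away in replicate 2. It was intergenic, 987 bp upstream of the start of ain-1, which was the nearest protein-coding start, and so lay just inside the 1000 bp limit of the promoter window. The summit of replicate 2 was 1032 bp upstream, just outside that limit. The next gene upstream, F59C12.3, starts 2940 bp from the summit.

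A weaker region overlapped the edge of the ain-1 peak, with its summit 787 bp upstream of the start. Whether it is a separate site or a flank of that peak was not tested. Its pooled signal was 36.3, at rank 1795, which is outside the optimal list. In the replicates' own lists it had a signal of 31.7 in replicate 1, at rank 823, and of 30.7 in replicate 2, at rank 766. Both replicates thus placed it among their 1076 strongest regions, while the pooled list did not. The next pooled region in the ain-1 window ranked 9618.

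**Figure D1:**
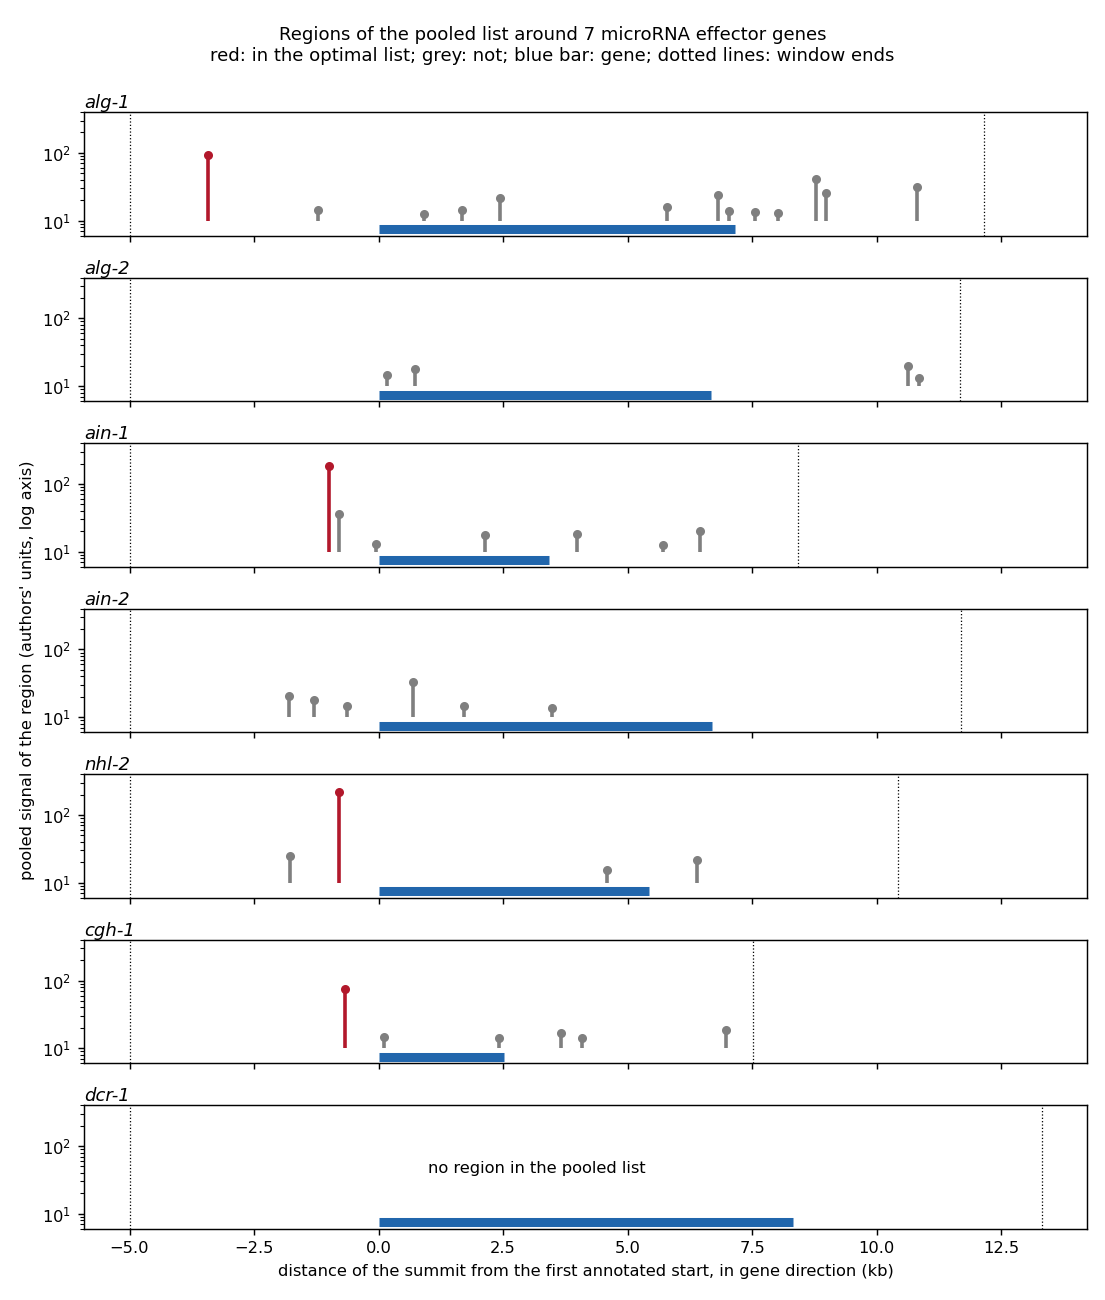
Summits of the pooled list around each of the 7 genes, plotted by distance in kb from the first annotated start in gene direction (x) against the region's pooled signal in the authors' units on a log axis (y). The 4 optimal peaks (red), at alg-1, ain-1, nhl-2 and cgh-1, all stand upstream of the gene body (blue bar), and the other 36 regions (grey) have signals of at most 40.6.

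**Figure D2:**
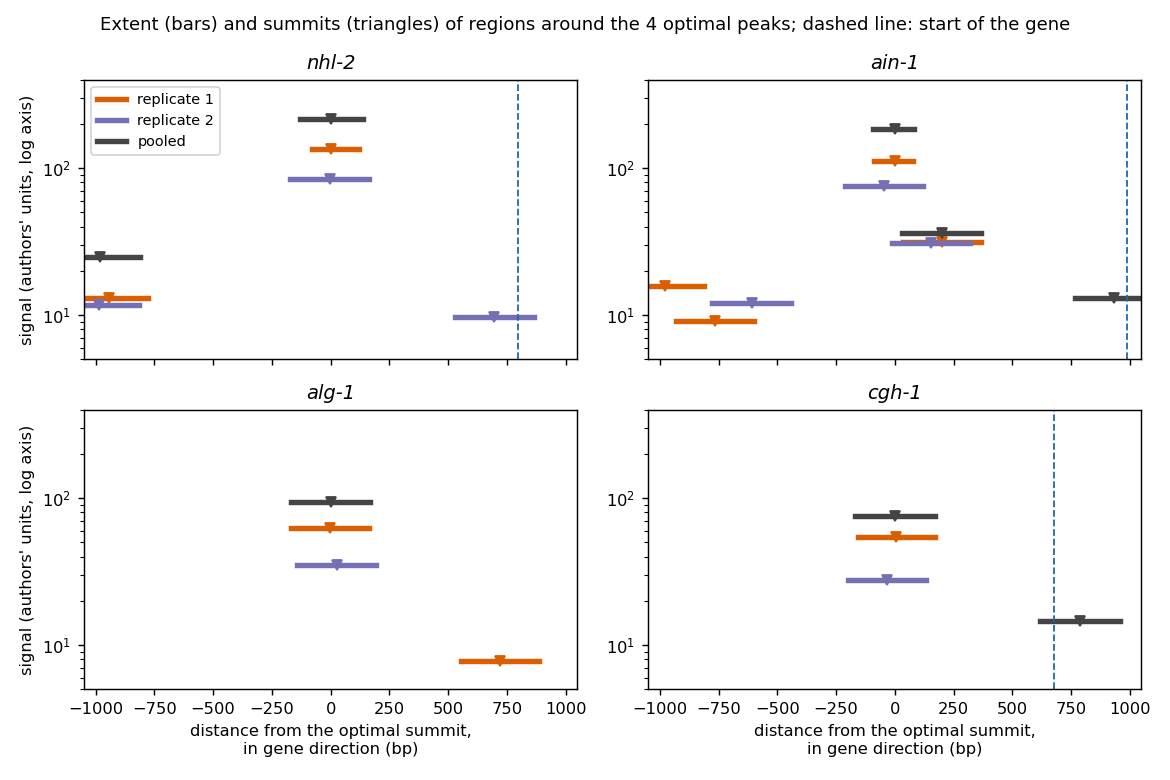
Regions within 1000 bp of the 4 optimal summits, with distance from the summit in bp in gene direction (x) and signal in the authors' units on a log axis (y) for replicate 1, replicate 2 and the pooled list; bars give the extent of a region, triangles its summit and dashed lines the start of the gene. Both replicates have a region at each optimal summit, and at ain-1 both have a second one nearer to the start.

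The alg-1 gene, which encodes one of the main microRNA Argonautes, had its optimal peak farther from the gene than the other 3. The gene spans X from 13949110 to 13956261 on the plus strand, with 4 annotated starts. The peak, 340 bp wide, had a pooled signal of 93.7 and rank 369. The signal was 62.6 in replicate 1, at rank 261, and 34.9 in replicate 2, at rank 597. The peak was among the 1076 strongest regions of each replicate, with summits 2 and 27 bp from the pooled one. The summit was intergenic and 3422 bp upstream of the first start of alg-1, outside the promoter window of any protein-coding gene, yet no other protein-coding start was nearer. It lies in the 7894 bp between alg-1 and elt-3, a GATA factor gene on the same strand, whose end is 4472 bp from the summit. The non-coding RNA gene K02B9.6, annotated on both strands from 13945710 to 13945763, comes within 22 bp of the summit. The summit of replicate 2 lay inside it.

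The alg-1 window held more pooled regions than any other of the 7, with 13, beside a median of 3 over all protein-coding genes, and 1.29% of these genes had at least 13. The window of alg-1, at 17152 bp, is also long. After the optimal peak the strongest of these regions lay past the end of the gene, 8783 bp from the first start, with a pooled signal of 40.6 at rank 1427. It ranked 1170 in replicate 2 with a signal of 25.2, but 22804 in replicate 1 with a signal of 7.28. Replicate 1 was the lower one in this region, whereas at the optimal peak it was the higher one.

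The weakest of the 4 optimal peaks lay at cgh-1, which encodes a DEAD-box RNA helicase of the DDX6 type that works in mRNA repression and storage. The gene spans III from 7495320 to 7497832 on the minus strand, with 1 annotated start. The peak runs from 7498339 to 7498678, and its pooled signal was 75.8 at rank 507, close to the median of 72.5 over all optimal peaks. The signal was 54.6 in replicate 1, at rank 328, and 27.8 in replicate 2, at rank 953. It was low in replicate 2, near the end of the 1076 strongest regions there. The summit was intergenic, 677 bp upstream of the cgh-1 start, and 239 bp past the end of C07H6.9, the next gene upstream on the same strand. In this window no other pooled region had a signal above 18.3.

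**Figure D3:**
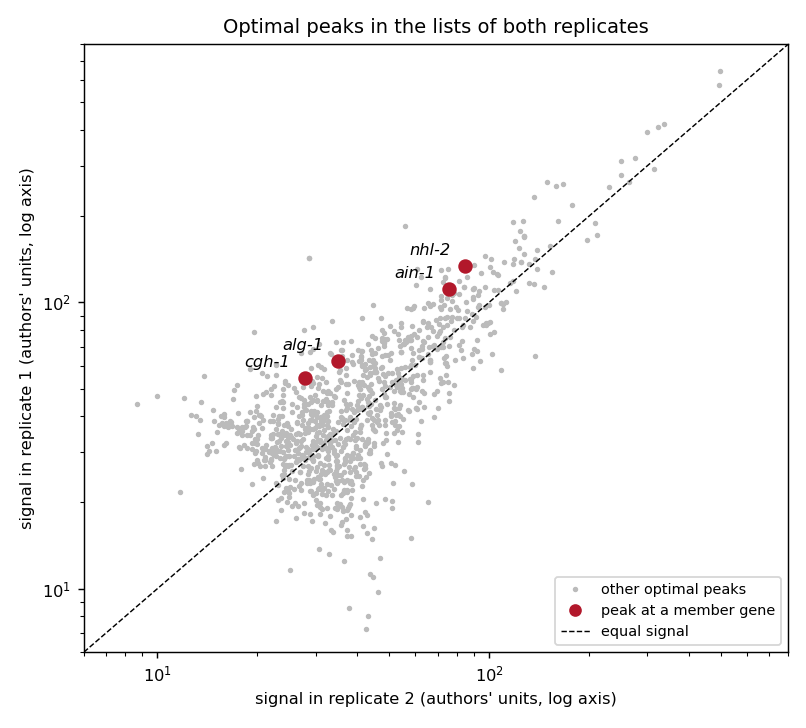
Signal in replicate 2 (x) and replicate 1 (y), both in the authors' units on log axes, for the 1070 optimal peaks found in the lists of both replicates; the dashed line marks equal signal. The peaks at nhl-2, ain-1, alg-1 and cgh-1 (red) all lie above the line, with ratios from 1.47 to 1.96.

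All 4 peaks had the higher signal and the better rank in replicate 1. The ratio of the signal in replicate 1 to that in replicate 2 was 1.59 at nhl-2, 1.47 at ain-1, 1.79 at alg-1 and 1.96 at cgh-1. Over all 1070 optimal peaks in both lists the median ratio was 1.11, with quartiles of 0.844 and 1.43, and 22.8% had a ratio of at least 1.47. A better rank in replicate 1 was found for 50.5% of them. With 2 replicates no test of this tilt was possible. On the −log10 q scale the 4 peaks shared the value of 3.11 in the optimal list and of 3.55 in replicate 1, while in replicate 2 they had 2.95 at nhl-2 and ain-1, 2.38 at alg-1 and 2.17 at cgh-1.

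The other 3 genes had no optimal summit. For alg-2, which encodes the second microRNA Argonaute of the soma, the window held 4 pooled regions. The gene spans II from 873212 to 879885 on the plus strand and has 2 annotated starts. The strongest pooled region had a signal of 20.1 at rank 9546 and lay past the end of the gene, in a pseudogene and 10629 bp from the first start. The strongest region of replicate 1 had a signal of 16.2 at rank 3144, with its summit 314 bp from the pooled one. That of replicate 2 had a signal of 21.5 at rank 1853, with its summit 2 bp from the pooled one. Closer to the gene, the regions inside alg-2 had pooled signals of 17.7 and 14.6. Neither replicate placed a region of alg-2 among its 1076 strongest.

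For ain-2, the second GW182-family gene, the window held 6 pooled regions. The gene spans I from 4653467 to 4660153 on the plus strand and has 6 annotated starts. The strongest pooled region, with a signal of 33.1 at rank 2177, lay in an intron, 627 bp downstream of the nearest start. The region of replicate 1 that overlapped it had a signal of 21.1 at rank 1680, and that of replicate 2 a signal of 13.4 at rank 9418. In replicate 2 the strongest region lay elsewhere, 1311 bp upstream of the first start within the neighbouring gene ptps-1, with a signal of 20.7 at rank 2136. The replicates thus placed their strongest ain-2 region at different sites, and neither was among the 1076 strongest.

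For dcr-1, the Dicer gene, the pooled list held 0 regions in a window of 18315 bp, the longest of the 7. The gene spans III from 8071967 to 8080281 on the minus strand, with 1 annotated start. Of all protein-coding genes, 12.6% had 0 pooled regions in their window. Replicate 1 had 1 region there, past the end of the gene within pros-1, with a signal of 11.9 at rank 7549. Replicate 2 had 1 region, 42 bp upstream of the start, with a signal of 9.40 at rank 23799. The 2 regions lie at opposite ends of the gene, and both are weak. The lists stop at 30000 regions and the depth is unknown, so weaker binding was not detectable here.

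**Figure D4:**
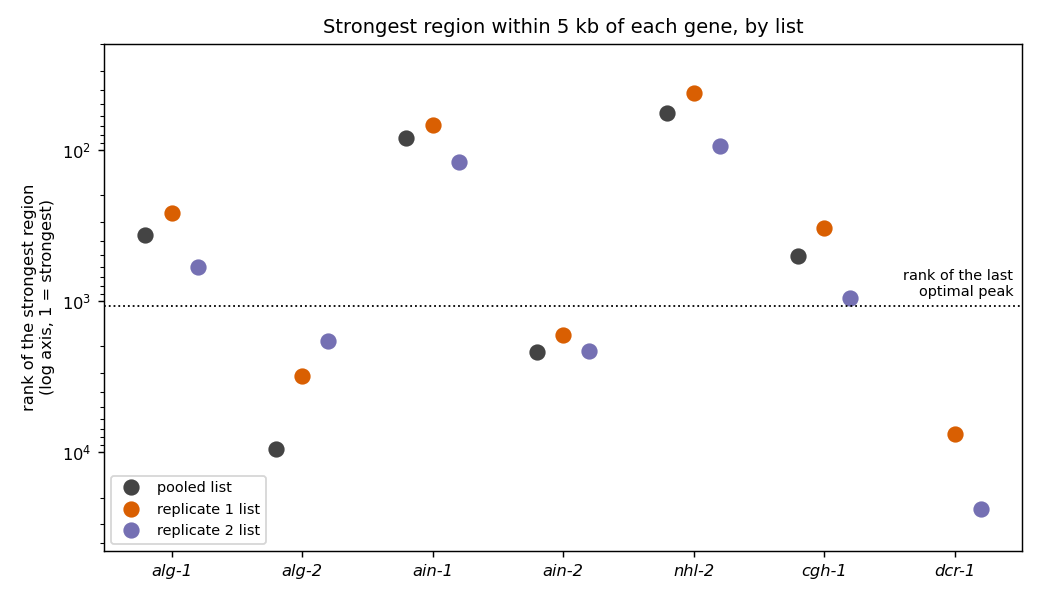
Rank of the strongest region within 5 kb of each of the 7 genes (x) in the pooled list and in each replicate's list (y, log axis, strongest at the top); the dotted line marks the last of the 1076 optimal peaks. The ranks of alg-1, ain-1, nhl-2 and cgh-1 lie above the line in all 3 lists and those of alg-2, ain-2 and dcr-1 below it, and dcr-1 has no point for the pooled list.

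In the 5 kb window, 1 gene of each pair of paralogs had an optimal peak and the other had none. The alg-1 peak lay 3422 bp upstream, so in the promoter window neither alg-1 nor alg-2 had one. For the Argonautes, the strongest pooled region ranked 369 at alg-1 and 9546 at alg-2. For the GW182-family genes it ranked 84 at ain-1 and 2177 at ain-2. The genes with a peak, alg-1 and ain-1, are on chromosome X, and the others, alg-2 and ain-2, are on autosomes. Of all protein-coding genes on X, 16.9% had an optimal summit in the 5 kb window and 5.42% in the promoter window, against 10.7% and 2.64% on II and 9.80% and 2.92% on I. On chromosome III, which holds nhl-2, cgh-1 and dcr-1, these shares were 13.4% and 4.02%. Among the 6470 protein-coding genes of the same range of lengths as the 7, from 2513 to 8315 bp, they were 12.7% and 3.93%.

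Across all 7 windows the pooled list held 40 regions, replicate 1's list 53 and replicate 2's list 37. The 4 optimal peaks overlapped a region of both replicates by at least 1 bp, as did 99.4% of all optimal peaks. Of the 36 other pooled regions in these windows, 19 overlapped a region of both replicates, 52.8%, beside 33.1% of all pooled regions outside the optimal list. These regions share windows, and some neighbouring ones overlap the same region of a replicate, so they are not independent.

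Other genes of this and related pathways were taken from 5 lists, written with earlier results of these data known, with 67 protein-coding genes in all. Of these, 9 had an optimal summit in the promoter window, 13.4%, and 19 in the 5 kb window, 28.4%, beside the shares of 3.07% and 10.6% of all protein-coding genes. The lists hold factors that act before, beside and after the 7 genes in microRNA repression. They also hold genes that act mainly in other small RNA pathways, among them most of the other Argonautes. The shares over all 67 are thus not shares of microRNA pathway genes alone. For microRNA biogenesis and turnover 4 of 12 genes had a summit in the 5 kb window and 1 had a promoter peak. This was lin-28, whose protein blocks let-7 maturation, with a pooled signal of 56.1. That peak ranked 499 in replicate 1 and 7002 in replicate 2, so it rested mainly on replicate 1. Among 15 other Argonautes 1 had any summit in the 5 kb window, 6.67% beside 10.6% of all genes. The same gene was the only 1 with a promoter peak, 6.67% beside 3.07%. Both shares rest on 1 gene. This was alg-5, whose promoter peak had a signal of 58.4, and that summit was nearest to the start of the histone gene his-68.

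Among 22 genes of deadenylation, decapping and decay, the steps that follow GW182 recruitment, 3 had a promoter peak, 13.6%, beside 3.07% of all genes. In the 5 kb window 4 had a summit, 18.2%, beside 10.6%. The strongest was at ifet-1, which encodes an eIF4E-binding repressor of translation, with a signal of 194 at rank 71. It ranked 65 in replicate 1 and 96 in replicate 2. The summit lay 490 bp from the ifet-1 start and nearer to the start of the ribosomal protein gene rps-1, whose promoter window it shares. The others were pab-2, a poly(A)-binding protein gene, with a signal of 83.6, and ntl-2, a gene of the CCR4-NOT deadenylase, with 73.5. At pab-2 the signal was 43.1 in replicate 1, at rank 482, and 47.2 in replicate 2, at rank 339. The ntl-2 peak ranked 744 in replicate 1 and 514 in replicate 2, so both stood somewhat higher in the list of replicate 2.

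Of 10 other complex factors and TRIM-NHL genes, 2 had a promoter peak and 5 had a summit in the 5 kb window. The promoter peaks were at puf-9, which encodes a Pumilio-family RNA-binding protein, with a signal of 162 at rank 124, and at nhl-3, a TRIM-NHL relative of nhl-2, with 51.4 at rank 973. The nhl-3 summit lay 617 bp downstream of the nearest nhl-3 start and counted only through the window of another start. With 500 bp before and 100 bp after each start it was not counted. The strongest summit of this list, chosen for mention after its value was seen, was at sup-26, an RNA-binding protein gene, with a signal of 300.5 at rank 25, but 1951 bp upstream of the nearest start. Of 9 protein-coding timing genes that microRNAs regulate or act with, 3 had a promoter peak, 33.3%, beside 3.07% of all genes. In the 5 kb window 6 had a summit, 66.7%, beside 10.6%. Both lists are short and were written with earlier results known, so these shares are a description only. Those with a promoter peak were lin-66 with a signal of 168, the transcription factor gene lin-14 with 67.6, and lin-28, which also stands in the biogenesis list.

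**Figure D5:**
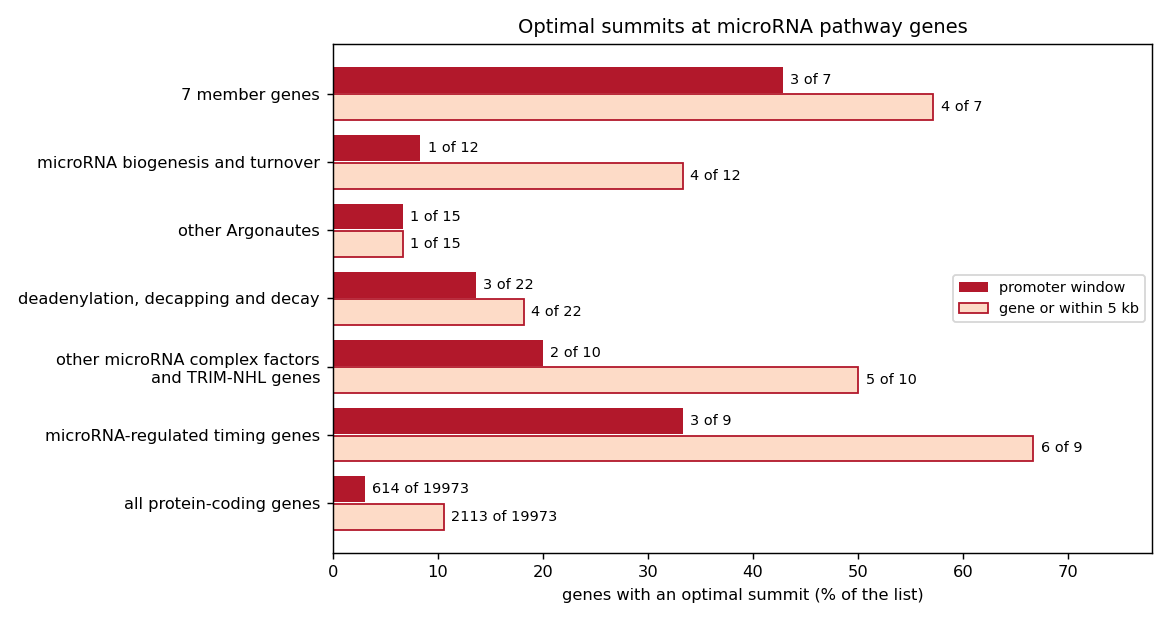
Share of genes in % (x) with an optimal summit in the promoter window (dark) and in the gene or within 5 kb (pale), for the 7 genes, the 5 further gene lists and all protein-coding genes (y); counts stand beside the bars. The 7 genes have 3 and 4 of 7, against 614 and 2113 of 19973 for all protein-coding genes, and lists of 9 to 22 genes change by large steps with 1 gene.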

How the data were processed

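MDL-1 ChIP-seq region lists of 2 replicates of L2 larvae were used. Per the deposited text notes on each library, the authors made its list from alignments plus 1 further file, for the ce10 and ce11 builds; only ce11 was used. Aligner, caller and irreproducible discovery rate threshold: not given in the sources used here. Regions carry the authors' deposited signal, on an unstated scale, and a deposited −log10 q-value. Read counts were not analysed here, so depth is unknown.

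Regions were ranked by signal within a list. Summits, counted from 1, were placed on Ensembl release 115 gene models, and sequence was read from the RefSeq WBcel235 genome, whose chromosomes are at least as long as the last region end in the files. Python 3.11.15 with pandas 2.3.3 and numpy 2.4.6 was used, and counting was tested on simulated summits. The authors called regions per replicate and on the pool; for 1 replicate alone, its 1076 strongest regions were used. The 7 genes, the word list and the 5 gene lists were chosen with earlier results of these data known. No test was run, since there is 1 group. Named were the 7 genes, protein-coding genes sharing a summit's promoter window or nearest to it, up to 4 genes by signal with a promoter peak in each list, and for each of the 7 with a promoter peak the 2 peaks closest in log10 signal; sup-26, klu-1, mdl-1 and other neighbours were named outside this rule. The gene imb-4 and 6 microRNA genes of the lists matched no protein-coding symbol and were left out. Alternatives covered window sizes, assignment to the nearest start, list length, single replicates, word distance and overlap.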

Additional observations from a re-analysis of the deposited data

How the results depend on the processing

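The count of 4 genes with an optimal summit in the 5 kb window stayed within 1.5 times in 7 of 8 alternatives, and fell to 0 when the summit had to lie inside the gene, beside 1.43% of all protein-coding genes. Among the 538 strongest optimal peaks it was 4, beside 5.68% of all genes, and among the 2000 strongest pooled regions 4, beside 18.4%. With flanks of 2 or 1 kb it was 3, without alg-1, beside 6.29% and 4.56% of all genes. With the nearest start only it was 3, without nhl-2, beside 4.19%. The count of 3 genes with a promoter summit was 0 in the window from 500 bp upstream to 100 bp downstream, beside 2.29% of all genes, where 3.07% had one in the wider window. With the nearest start only it was 2, without nhl-2, beside 2.55%. With either replicate's list alone both counts held the same genes, 4 and 3. The shares of all genes were 10.6% and 2.99% for replicate 1 and 10.9% and 3.08% for replicate 2. In each there were 5 summits in place of 4, the added one in a region that overlaps the ain-1 peak. In replicate 2 that added summit, 832 bp upstream, is what places ain-1 in the promoter count, since the main summit was 1032 bp upstream. The 9 listed genes with a promoter summit became 15 in the window from 2000 bp upstream to 500 bp downstream, beside 4.34% of all genes. They were 5 among the 538 strongest optimal peaks, beside 1.55%. From replicate 1 alone they numbered 12, beside 2.99%, and from replicate 2 alone 7, beside 3.08%. CACGTG lay within 50 bp of 1 summit and within 25 bp of 0. No paired analysis was possible because there is 1 group. Depth is unknown and signals have no stated scale, which limits what the weak regions at alg-2, ain-2 and dcr-1 can show.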

Other observations

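The longest run of bases shared by any 2 of the 4 optimal peaks, over 6 pairs and both strands, was 14 bases between ain-1 and alg-1, both on chromosome X. It reads GTGTGCGGCGGTGC on the plus strand at ain-1, centred 11 bp from that summit, and stands on the minus strand at alg-1, 72 bp from that summit. These 2 were its only copies on the nuclear chromosomes. The longest runs shared by the other 5 pairs were of 9 or 10 bases. The word was picked after it was seen and was given no test.

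Among 534 other optimal peaks in promoter windows, those closest to the nhl-2 peak in the log10 signals of the 2 replicates were at bcat-1 and mnk-1, at distances of 0.0545 and 0.0726. The closest to the ain-1 peak were at adh-1 and R13A5.7, at 0.0230 and 0.0307. The closest to the cgh-1 peak were at K07E3.4 and at the start region shared by sec-61.B and trap-3, at 0.0252 and 0.0317. Likeness here rests on 2 samples.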
